A study of Mus musculus with 7 samples.

Results

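Mueller glia are the radial support cells of the neural retina. They take up the glutamate that photoreceptors and neurons release, convert it to glutamine, and move potassium and water out of the tissue through channels in their endfeet. When the retina is injured they become reactive, and the filament protein GFAP is the classic sign of that state. The 7 genes described here cover these functions: Glul (glutamine synthetase), Slc1a3 (the glutamate transporter GLAST), Aqp4 (the water channel aquaporin-4), Kcnj10 (the potassium channel Kir4.1), Gfap, and the transcription factors Sox2 and Hes1. They were taken by gene symbol from a table of 21861 rows, and all 7 were found and passed the expression filter. Their identities are background knowledge about the neural retina. None of these genes is exclusive to Mueller glia, and astrocytes share most of them.

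The tissue was not neural retina but retinal pigment epithelium (RPE), the pigmented layer behind the photoreceptors, from aged mice. Adeno-associated virus (AAV) carried the gene for the green fluorescent protein GFP into 1 group (3 libraries) and the gene for GSTA4 into the other (4 libraries). GSTA4 is a glutathione transferase that conjugates aldehydes formed by lipid peroxidation. Both groups therefore carried an AAV vector, and all tissue was collected 12 weeks after treatment. Strain, age in months, sex, the route of injection, the promoter of the vectors and any pooling of animals are not given in the sources used here, nor is it stated that each library came from a separate animal, so p-values measure the spread between these libraries only. The comparison asks how GSTA4 delivery altered transcripts of the aged RPE, and for these genes what glial signal the preparations held.

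The libraries held 15329181 to 28998964 counts, and the human transgene row hGSTA4 had 1 to 3 counts in AAV-GFP and 45 to 5239 in AAV-GSTA4, lowest in replicate 3. The GFP transgene row d2EGFP reached counts of 3970 in replicate 2 and 2361 in replicate 3 of AAV-GFP, but 99 in replicate 1, which is under the 163 of AAV-GSTA4 replicate 1. All 12 RPE markers (Rpe65, Rgr and others) were counted in every library. With counts scaled to a common library total (CPM), their sum was 29859 to 69068 CPM in AAV-GFP and 54600 to 93212 CPM in AAV-GSTA4. All 12 rod markers were counted in every library too, at 15084 to 53536 CPM in AAV-GFP and 6914 to 13179 CPM in AAV-GSTA4, so rod transcripts were present in each preparation and their sums did not overlap between the groups. AAV-GFP replicate 3 stood apart. Its log2 CPM correlated with those of the other libraries at a mean of 0.838, against 0.910 to 0.926 for the other 6. It had the highest rod sum and the lowest RPE sum. Values without it are given beside the comparisons that it moves, and the cause of its deviation was not tested.

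Between the groups, 0 of the 7 genes had an adjusted p-value under 0.05 by the quasi-likelihood test of edgeR, nor did any of the 15075 genes tested (0% called). At an unadjusted p-value under 0.05, 1 of the 7 (Slc1a3) was lower in AAV-GSTA4 and 0 were higher, where 6.63% of all genes were lower and 5.27% higher at that level. Without AAV-GFP replicate 3, 0 of the 7 were at that level, beside 5.74% of all genes lower and 6.76% higher, and the median log2 fold change of the 7 was -0.50. The fold change was below 0 for 5 of the 7 genes and for 55.4% of all genes. The median log2 fold change of the 7 was -0.76, beside -0.07 over all genes tested. In bulk tissue, fewer glial cells and less RNA per cell cannot be told apart.

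**Figure D1:**
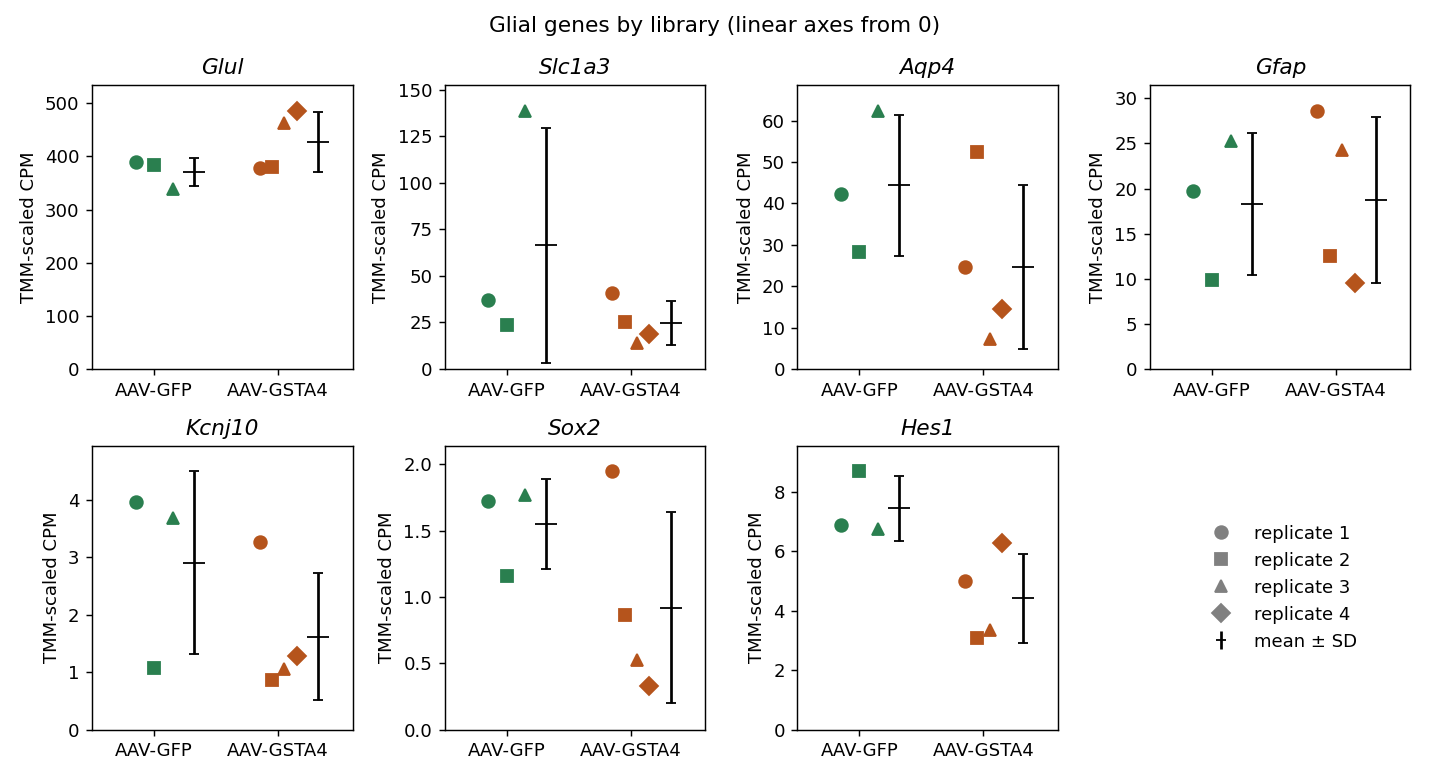
TMM-scaled CPM of each gene (linear axes from 0), with 1 symbol per library, AAV-GFP (n = 3) on the left and AAV-GSTA4 (n = 4) on the right of each panel, and the mean with its SD beside the points. Glul lies between 340 and 486 CPM in all libraries, Slc1a3 has 1 high point in AAV-GFP replicate 3, and Hes1 is the gene whose groups do not overlap.

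The levels of the 7 genes were compared per kilobase of annotated exon, since a longer transcript collects more reads. Glul was far above the rest, at 121 ± 15.7 CPM per kb (SD over all 7 libraries), and its lowest library (102) exceeded the highest library of every other member. Aqp4 (5.31 ± 3.23), Slc1a3 (4.98 ± 5.09), Gfap (4.40 ± 1.88) and Hes1 (2.81 ± 0.996) followed, and neighbours in this order did not differ beyond their spread. Sox2 (0.578 ± 0.312) and Kcnj10 (0.402 ± 0.257) were lowest, and they too lay within each other's spread. The genes also differed in how much they varied. The highest library was 1.43-fold the lowest for Glul, 2.83-fold for Hes1, 3.01-fold for Gfap, 4.59-fold for Kcnj10, 5.87-fold for Sox2, 8.56-fold for Aqp4 and 10.1-fold for Slc1a3. Without AAV-GFP replicate 3 it was 2.97-fold for Slc1a3, 7.20-fold for Aqp4 and 1.29-fold for Glul, so that Aqp4 then varied most.

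Over all 7 libraries Glul had the smallest and Slc1a3 the largest fold range, the latter through AAV-GFP replicate 3, and Gfap is the stress marker of the set, so the bases before the starts of these 3 genes are shown. They were chosen after their values had been seen. Each window is the 250 bases upstream of the RefSeq start (GRCm38.p6), written 5′ to 3′ on the gene's own strand. Capitals mark matches to any of 5 motifs, searched on both strands: STAT (TTCNNNGAA), the TATA box (TATAAA), the CCAAT box (CCAAT), RBPJ (TGGGAA) and SOX (ACAAAG). The Glul window is chr1:153899679-153899928 on the plus strand. The windows of Slc1a3, chr15:8710808-8711057, and Gfap, chr11:102897201-102897450, are on the minus strand.
Glul: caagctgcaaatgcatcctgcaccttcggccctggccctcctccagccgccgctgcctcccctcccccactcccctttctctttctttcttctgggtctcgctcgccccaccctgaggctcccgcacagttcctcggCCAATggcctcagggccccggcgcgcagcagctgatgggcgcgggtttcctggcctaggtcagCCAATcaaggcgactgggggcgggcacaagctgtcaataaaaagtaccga
Slc1a3: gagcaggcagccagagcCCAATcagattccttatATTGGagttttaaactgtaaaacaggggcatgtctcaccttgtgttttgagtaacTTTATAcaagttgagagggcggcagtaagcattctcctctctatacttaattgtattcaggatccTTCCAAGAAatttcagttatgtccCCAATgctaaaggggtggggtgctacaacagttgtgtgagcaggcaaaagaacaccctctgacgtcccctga
Gfap: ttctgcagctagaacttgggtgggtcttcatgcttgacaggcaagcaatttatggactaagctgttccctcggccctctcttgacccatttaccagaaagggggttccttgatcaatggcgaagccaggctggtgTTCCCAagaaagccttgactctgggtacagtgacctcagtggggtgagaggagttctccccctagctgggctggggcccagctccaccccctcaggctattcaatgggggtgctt

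The Glul window was 64.8% G and C and held 2 CCAAT boxes, the nearer ending 46 bases before the start. The Slc1a3 window was 44.8% G and C. It held 3 CCAAT boxes, a TATAAA match on the opposite strand, and a STAT match, TTCCAAGAA, from 96 to 88 bases before the start. The Gfap window, 55.6% G and C, held 1 match, to RBPJ on the opposite strand, 115 to 110 bases before the start. A promoter was matched for 5 of the 7 genes, all but Aqp4 and Hes1. Of the matched genes not printed, Kcnj10 had 2 CCAAT boxes, and Sox2 had 1 with a SOX match 206 to 201 bases before its start. Of 32841 RefSeq windows of this length, 33.9% held a CCAAT box, 21.6% an RBPJ match, 16.5% a SOX match, 12.4% a TATA box and 7.02% a STAT match. These matches describe letters in a window, and binding was not measured.

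The first group of members handles glutamate. Glul (ENSMUSG00000026473.15, chromosome 1, 153899944 to 153909723, GRCm38) encodes the enzyme that joins ammonia to glutamate. It was at 389, 384 and 340 CPM in the AAV-GFP libraries (replicates 1 to 3) and at 378, 379, 463 and 486 CPM in the AAV-GSTA4 libraries (replicates 1 to 4). AAV-GSTA4 replicates 3 and 4 were the highest of the 7 libraries, whereas replicates 1 and 2 lay within the AAV-GFP range. The means were 371 ± 27.2 CPM (SD) over the 3 AAV-GFP libraries and 427 ± 56.2 CPM (SD) over the 4 AAV-GSTA4 libraries. The log2 fold change was 0.20 ± 0.23 (SE), with a 95% interval of -0.30 to 0.71 and adjusted p = 0.745 (edgeR). Relative to library totals without TMM scaling the sign turned, at -0.09, with the all-gene median at -0.37 under that scaling. The place of AAV-GFP replicate 3 also depended on the scaling: it had the lowest Glul level with TMM and the highest, 463 CPM, relative to library totals.

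Slc1a3 (ENSMUSG00000005360.14, chromosome 15, 8634124 to 8710764) encodes the transporter that clears glutamate into Mueller glia. It was at 36.8, 23.6 and 139 CPM in the AAV-GFP libraries (replicates 1 to 3) and at 40.7, 25.3, 13.7 and 18.8 CPM in the AAV-GSTA4 libraries (replicates 1 to 4). A single library, AAV-GFP replicate 3, lay far above the other 6, and the remaining AAV-GFP libraries fell inside the AAV-GSTA4 range. The means were 66.4 ± 62.9 CPM (SD) over the 3 AAV-GFP libraries and 24.6 ± 11.7 CPM (SD) over the 4 AAV-GSTA4 libraries, a log2 fold change of -1.43 ± 0.58 (SE) with a 95% interval of -2.73 to -0.13. Its unadjusted p-value was 0.0343 and its adjusted p-value 0.391 in edgeR's test, and an exact two-sided permutation test of log2 CPM over all 35 relabellings gave p = 0.229. Without AAV-GFP replicate 3 the log2 fold change was -0.29, with adjusted p = 0.793 (edgeR). With the mean level of the rod markers as a covariate it was 0.18, with the sign turned and adjusted p = 0.958 (edgeR). Because rod sums did not overlap between the groups, that fit cannot tell rod content and group apart, here or for the other members. The call at the unadjusted threshold was also lost without AAV-GSTA4 replicate 2, 3 or 4, where the log2 fold change was -1.43, -1.22 and -1.30.

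The second group conducts water and potassium. Aqp4 (ENSMUSG00000024411.10, chromosome 18) forms the water channel of glial endfeet. It was at 42.2, 28.3 and 62.4 CPM in the AAV-GFP libraries (replicates 1 to 3) and at 24.6, 52.5, 7.28 and 14.4 CPM in the AAV-GSTA4 libraries (replicates 1 to 4). AAV-GSTA4 replicate 2 was high, within the AAV-GFP range, and the other 3 AAV-GSTA4 libraries were the lowest of all. The means were 44.3 ± 17.1 CPM (SD) over the 3 AAV-GFP libraries and 24.7 ± 19.8 CPM (SD) over the 4 AAV-GSTA4 libraries. The log2 fold change was -0.85 ± 0.57 (SE), with a 95% interval of -2.12 to 0.42 and adjusted p = 0.563 (edgeR). The exact permutation test gave p = 0.200. Single libraries moved this value in both directions. It was -0.50 without AAV-GFP replicate 3 (adjusted p = 0.810, edgeR), -0.52 without AAV-GSTA4 replicate 3 (0.811) and -0.39 with the rod covariate (0.925). Without AAV-GSTA4 replicate 2 it was -1.51, with an unadjusted p-value of 0.0106 and adjusted p = 0.347 (edgeR). AAV-GSTA4 replicate 2 also had the highest sum of lens markers, 76439 CPM of its total against 2955 to 18610 CPM in the other 3 of its group, and the part of lens tissue in its Aqp4 level was not tested.

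Kcnj10 (ENSMUSG00000044708.5, chromosome 1, 172341210 to 172374085) encodes the channel that carries potassium out of the retina. It was sparse, with counts of 85, 28 and 77 in the AAV-GFP libraries (replicates 1 to 3) and of 62, 18, 18 and 35 in the AAV-GSTA4 libraries (replicates 1 to 4). These counts correspond to 3.96, 1.08 and 3.68 CPM in AAV-GFP, and to 3.26, 0.863, 1.06 and 1.29 CPM in AAV-GSTA4. The libraries fell into a high set (AAV-GFP replicates 1 and 3, AAV-GSTA4 replicate 1) and a low set of 4 that crossed the group labels. The log2 fold change was -0.85 ± 0.71 (SE), with a 95% interval of -2.43 to 0.74 and adjusted p = 0.650 (edgeR). It was -0.55 without AAV-GFP replicate 1, -1.41 without AAV-GSTA4 replicate 1 and -0.32 in limma-voom.

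Gfap (ENSMUSG00000020932.14, chromosome 11, 102887336 to 102900912), the filament protein of reactive glia, had the fold change nearest to 0 in the comparison of all 7 libraries. It was at 19.7, 9.84 and 25.3 CPM in the AAV-GFP libraries (replicates 1 to 3) and at 28.6, 12.5, 24.3 and 9.51 CPM in the AAV-GSTA4 libraries (replicates 1 to 4). Each group held both high and low libraries, and the group ranges nearly coincided. The means were 18.3 ± 7.83 CPM (SD) over the 3 AAV-GFP libraries and 18.7 ± 9.18 CPM (SD) over the 4 AAV-GSTA4 libraries. The log2 fold change was 0.03 ± 0.45 (SE), with adjusted p = 0.986 (edgeR), and its 95% interval of -0.97 to 1.04 leaves room for about a doubling or a halving. The exact permutation p was 1. The fitted log2 fold change was -0.31 relative to library totals, 0.35 without AAV-GFP replicate 3 and 0.76 with the rod covariate, and in each of these Glul was nearer to 0.

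The transcription factors form the last group. Hes1 (ENSMUSG00000022528.8, chromosome 16, 30064384 to 30067796) is a Notch target that holds retinal progenitors undifferentiated. It was at 6.89, 8.69 and 6.74 CPM in the AAV-GFP libraries (replicates 1 to 3) and at 4.998, 3.07, 3.35 and 6.27 CPM in the AAV-GSTA4 libraries (replicates 1 to 4). The highest AAV-GSTA4 library was thus under the lowest AAV-GFP library. Hes1 was the 1 member of 7 whose groups did not overlap in this direction, as was true of 5.57% of all genes. In the other direction 0 of the 7 were without overlap, beside 6.5% of all genes. The gap was narrow, from 6.27 to 6.74 CPM, and the counts behind it were 57 to 225 per library. The means were 7.44 ± 1.08 CPM (SD) over the 3 AAV-GFP libraries and 4.42 ± 1.497 CPM (SD) over the 4 AAV-GSTA4 libraries. The log2 fold change was -0.75 ± 0.39 (SE), with a 95% interval of -1.62 to 0.12 and adjusted p = 0.468 (edgeR). The exact permutation test gave p = 0.0571, where the smallest value this design allows is 0.0286. Unlike Slc1a3, Hes1 had a similar log2 fold change without AAV-GFP replicate 3, -0.82, and with the rod covariate, -1.10, neither of which passed the adjusted threshold.

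Sox2 (ENSMUSG00000074637.7, chromosome 3, 34650405 to 34652461) marks retinal progenitors and is kept on in Mueller glia. Its counts were 37, 30 and 37 in the AAV-GFP libraries (replicates 1 to 3) and 37, 18, 9 and 9 in the AAV-GSTA4 libraries (replicates 1 to 4), or 1.72, 1.16 and 1.77 CPM and 1.95, 0.863, 0.529 and 0.332 CPM. AAV-GSTA4 replicates 2, 3 and 4 were the lowest of the 7 libraries, while AAV-GSTA4 replicate 1 had the same count as AAV-GFP replicates 1 and 3. The 95% Wilson interval of the lowest library was 0.175 to 0.631 CPM and that of AAV-GSTA4 replicate 1 was 1.41 to 2.68 CPM, which cover counting error only. The log2 fold change was -0.76 ± 0.80 (SE), with adjusted p = 0.728 (edgeR). It was -1.40 without AAV-GSTA4 replicate 1 (adjusted p = 0.523, edgeR), -0.45 without AAV-GSTA4 replicate 4 (0.899) and -0.11 with the rod covariate (0.986).

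**Figure D2:**
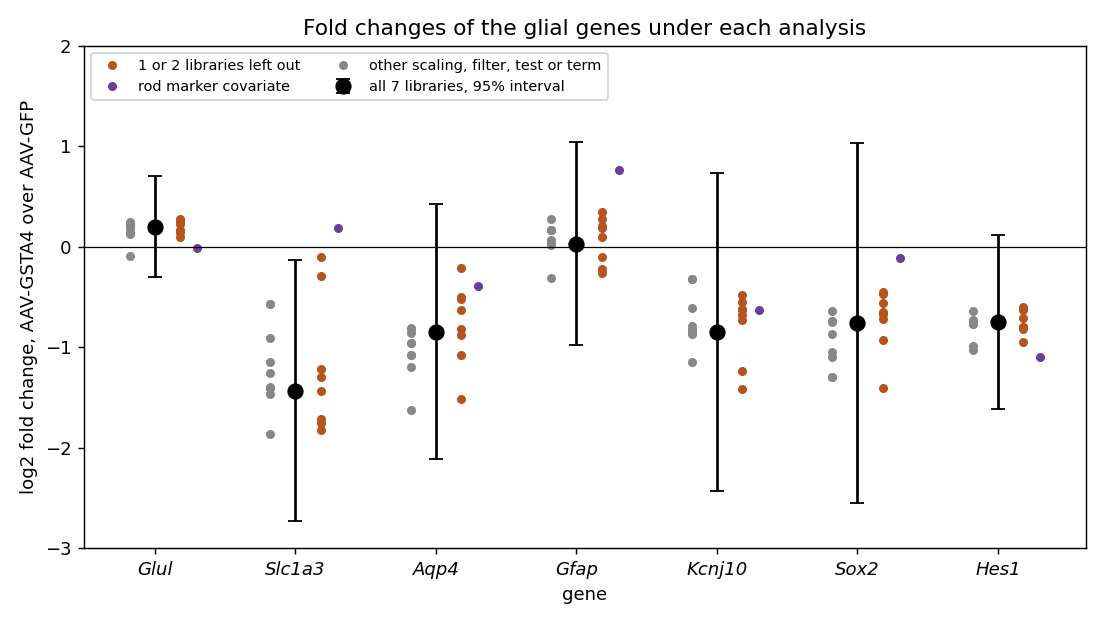
Log2 fold change of each gene, AAV-GSTA4 over AAV-GFP, from all 7 libraries (black, with 95% interval), from fits with 1 or 2 libraries left out (orange), with the rod markers as a covariate (purple) and under the other scalings, filters, tests and model terms (grey). Hes1 stays between -1.10 and -0.60, whereas Slc1a3 runs from -1.86 to 0.18 and Gfap from -0.31 to 0.76.

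The markers of other cells differed between libraries in several patterns. Relative to library totals, Slc1a3 shared its peak in AAV-GFP replicate 3 with the rod, cone, bipolar, amacrine and horizontal, ganglion, endothelial and ocular surface markers. With TMM scaling, only the rod, cone, bipolar and endothelial sums of these still peaked in that library. The ganglion sum then peaked in AAV-GFP replicate 1. The amacrine and horizontal sum peaked in AAV-GSTA4 replicate 1 and the ocular surface sum in AAV-GSTA4 replicate 4. In AAV-GFP replicate 3 the 6 endothelial markers summed to 212 CPM of the total, and to 25.6 to 41.5 CPM in the other 6 libraries. The 9 cone markers summed to 1049 CPM there and to 206 to 544 CPM elsewhere. By group the cone sums were 344 to 1049 CPM in AAV-GFP and 206 to 340 CPM in AAV-GSTA4, without overlap. Without Gnat2, the most abundant cone marker, they overlapped, at 252 to 847 CPM and 132 to 268 CPM. Ganglion cell markers were high in AAV-GFP replicates 1 and 3 (263 and 336 CPM), the libraries in which Kcnj10 was also highest. They were at 116 CPM in AAV-GFP replicate 2 and at 43.2 to 144 CPM in AAV-GSTA4, with replicate 1 the highest of its group. Without Nefl, the most abundant ganglion cell marker, the sums did not overlap. They were then 60.1 to 133 CPM in AAV-GFP and 21.7 to 49.9 CPM in AAV-GSTA4. The bipolar cell markers summed to 616 to 960 CPM in AAV-GFP and to 195 to 486 CPM in AAV-GSTA4, without overlap. That separation rested on Trpm1, the most abundant of them. Without it the sums overlapped, at 149 to 509 CPM in AAV-GFP and 43.9 to 187 CPM in AAV-GSTA4. Amacrine and horizontal cell markers overlapped, at 216 to 420 CPM in AAV-GFP and 123 to 380 CPM in AAV-GSTA4. Their most abundant gene was Slc6a9, and the rest summed to 84.9 to 262 CPM in AAV-GFP and 43.1 to 145 CPM in AAV-GSTA4. The part of these cells in the member results was not tested. The rod sums did not overlap between the groups, so the fit with the rod covariate cannot tell rod content and group apart.

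Astrocytes of the nerve fibre layer share Gfap, Slc1a3, Aqp4 and Kcnj10. Pax2, their defining transcription factor, had 0 counts in 5 of the 7 libraries, including all of AAV-GFP. The 6 astrocyte markers summed to 354 to 844 CPM in AAV-GFP and 486 to 738 CPM in AAV-GSTA4. Most of that sum was Gja1, the gap junction protein connexin 43, which the RPE also makes. The sum was lowest in AAV-GFP replicate 3, where Slc1a3 and Aqp4 were highest, and that low rested on Gja1. Without Gja1 the markers summed to 170 CPM in that library. The ranges were then 150 to 203 CPM in AAV-GFP and 165 to 194 CPM in AAV-GSTA4. Microglia and macrophage markers summed to 286 to 381 CPM in AAV-GFP and 335 to 553 CPM in AAV-GSTA4, with overlap. Their most abundant gene was Csf1r, and the rest ran the other way, at 91.4 to 130 CPM in AAV-GFP and 50.3 to 72.0 CPM in AAV-GSTA4. Fibroblast markers summed to 237 to 935 CPM and 270 to 593 CPM, and Schwann cell markers to 295 to 422 CPM and 386 to 578 CPM. Ocular surface keratins and Trp63 summed to 242 to 364 CPM and 25.1 to 262 CPM.

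**Figure D3:**
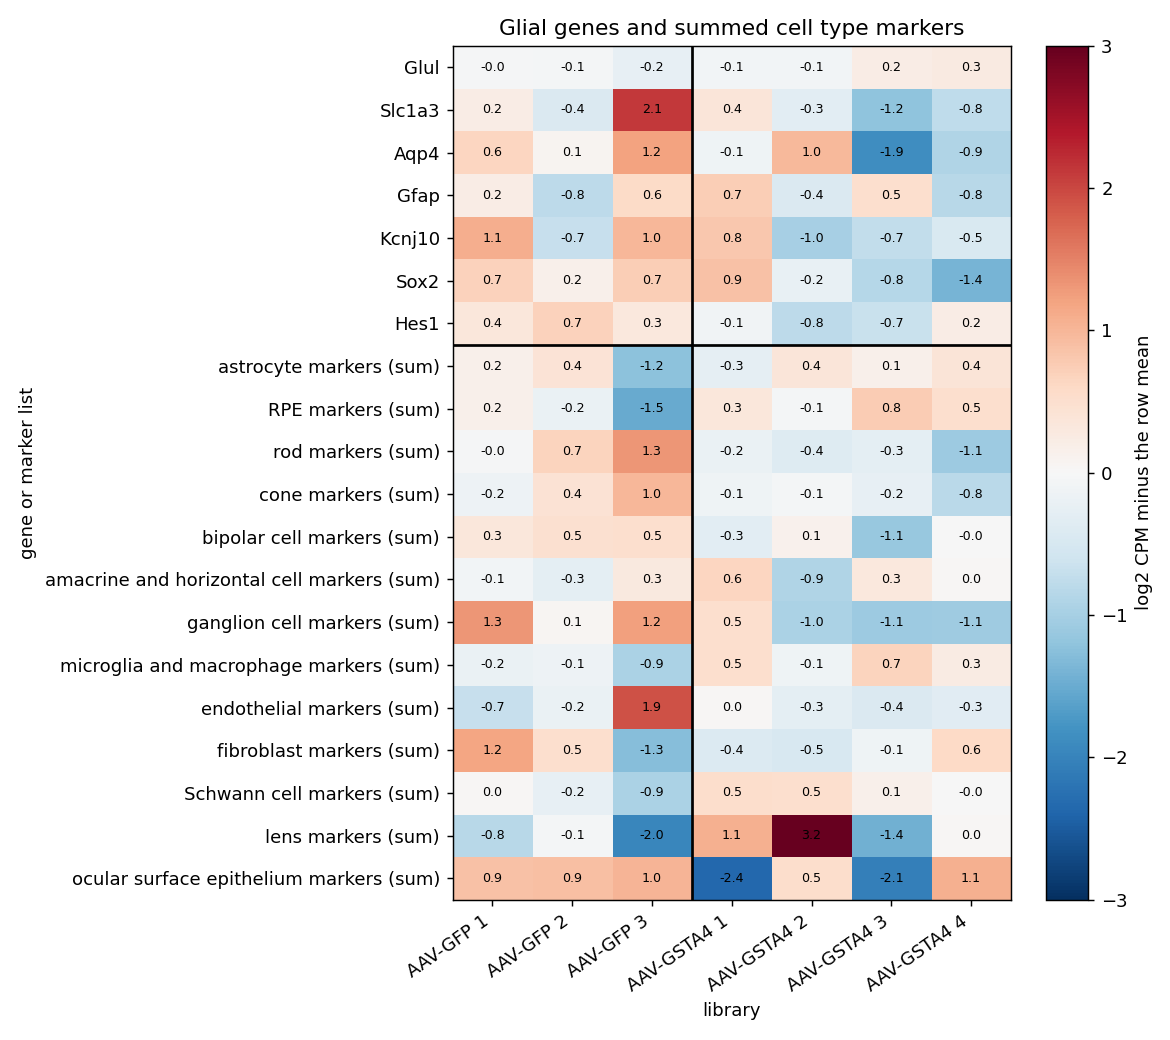
Log2 CPM of the 7 genes and of the summed markers of 13 cell types, each row centred on its own mean, with libraries as columns and AAV-GFP left of the vertical line. AAV-GFP replicate 3 is high for Slc1a3 (2.13 above its mean), endothelial (1.90) and rod markers (1.33) and low for RPE markers (-1.52).

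Genes were also compared by the root mean square difference of centred log2 CPM over the 7 libraries. It is small for 2 genes that move together, and also for 2 genes that both vary little. By this measure the nearest gene to Slc1a3 among the related and cell type marker lists was Gpr37 (0.26). Gpr37 is a prosaposin receptor found in glia, and it was at 54.4 CPM in AAV-GFP replicate 3 and 4.31 to 15.4 CPM in the other libraries. The nearest to Aqp4 was Hes5 (0.41), a Notch target of Mueller glia. The nearest to both Kcnj10 (0.41) and Sox2 (0.30) was Gad1, the GABA-synthesising enzyme of amacrine cells. Hes1 was nearest to the amino acid transporter Slc1a5 (0.26), Gfap to the glutamine transporter Slc38a3 (0.46) and Glul to Rbpj (0.13), the DNA-binding partner of Notch. Among all genes whose mean log2 CPM reached 2, the nearest were Mrps12 to Glul (0.04), Rap1gap2 to Slc1a3 (0.14), Cxcl14 to Aqp4 (0.23), Kif5a to Gfap (0.18), Neurod4 to Sox2 (0.19) and Lmo4 to Hes1 (0.13). Neurod4 is a transcription factor of retinal neurons and Kif5a a neuronal kinesin. Between the members themselves the smallest difference was 0.57 (Glul and Hes1) and the largest 1.18 (Aqp4 and Gfap). Glul and Hes1 did not move together, with a Pearson r of -0.24. The r was 0.75 for Slc1a3 with Kcnj10 and 0.75 for Kcnj10 with Sox2. Glul ran opposite to Sox2 (r = -0.89), Aqp4 (-0.87) and Slc1a3 (-0.82). With TMM scaling, Glul and the RPE marker sum were both lowest in AAV-GFP replicate 3. Both were highest in AAV-GSTA4 replicates 3 and 4. The part of RPE cells in the Glul level was not tested. For scale, a gene's own root mean square deviation over the libraries was 0.17 for Glul and 1.01 for Aqp4.

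The related lists, 5 in all, held 61 genes, of which 59 were tested, and edgeR called 0 of them at the adjusted threshold. DESeq2 called 2 of them, Clu (adjusted p-value 0.0331) and Cebpd (0.0316), beside 166 of the 15075 genes tested. Without adjustment, 5 genes were higher and 7 lower at 0.05, beside 5.27% and 6.63% of all genes tested.

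The 12 other genes of Mueller glia split evenly, 6 with a fold change above 0 and 6 below, and their median log2 fold change was 0.01. No gene lay near that median. The 6 above were at 0.35 (Vim) to 0.97 (Clu), and the 6 below at -1.51 (Gpr37) to -0.33 (Dkk3). The part of RPE transcripts in this split was not tested. Clu, the secreted chaperone clusterin, had the smallest p-value of those higher. It was at 4717, 4841 and 2938 CPM in the AAV-GFP libraries (replicates 1 to 3) and at 7928, 7512, 10303 and 6948 CPM in the AAV-GSTA4 libraries (replicates 1 to 4), without overlap. Its log2 fold change was 0.97 ± 0.34 (SE), with adjusted p = 0.373 (edgeR), and 0.78 without AAV-GFP replicate 3. Rlbp1, the retinaldehyde-binding protein CRALBP that RPE and Mueller glia both make, was at 2357 ± 586 CPM (SD) over the 3 AAV-GFP libraries and 3987 ± 898 CPM (SD) over the 4 AAV-GSTA4 libraries, with a log2 fold change of 0.76 ± 0.33 (SE; 0.57 without AAV-GFP replicate 3). On the lower side, Crb1, an apical polarity protein at the outer limiting membrane, had a log2 fold change of -0.95 ± 0.32 (SE; -0.61 without it). Both were under an unadjusted p-value of 0.05 with that library (0.0474 and 0.0159, edgeR) and over it without (0.0603 and 0.0597). Gpr37 had one of -1.51 ± 0.69 (SE), which was -0.08 without AAV-GFP replicate 3. Crb1 and Gpr37 had adjusted p-values of 0.370 and 0.429 in edgeR's test.

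Of the 16 genes of the glial stress response, 14 were tested, 10 with a fold change below 0 and 4 above, and the median log2 fold change was -0.69. At an unadjusted p-value under 0.05, 3 were lower and 1 was higher, beside 6.63% and 5.27% of all genes. Without AAV-GFP replicate 3 the counts were 1 lower and 2 higher, beside 5.74% and 6.76% of all genes, and the median was -0.18. Cebpd, a transcription factor induced by cytokines, was at 5.03, 4.13 and 9.33 CPM in the AAV-GFP libraries (replicates 1 to 3) and at 2.47, 1.29, 1.29 and 0.885 CPM in the AAV-GSTA4 libraries (replicates 1 to 4), without overlap. Its log2 fold change was -2.05 ± 0.53 (SE), with adjusted p = 0.363 (edgeR), and -1.62 without AAV-GFP replicate 3. Edn2, the endothelin that stressed photoreceptors release, was at 1.02, 3.90 and 48.4 CPM in AAV-GFP replicates 1 to 3 and at 0.9996 to 3.47 CPM in AAV-GSTA4. Its log2 fold change of -3.03 ± 1.05 (SE; adjusted p = 0.373, edgeR) was -0.19 (adjusted p = 0.930, edgeR) without AAV-GFP replicate 3, the library in which Slc1a3 was also highest. Osmr, the oncostatin M receptor, had a log2 fold change of 0.89 ± 0.37 (SE; 0.56 without that library) and was lowest in AAV-GFP replicate 3, at 69.9 CPM against 160 to 345 CPM elsewhere. Cd44, a hyaluronan receptor, was at 153 CPM in AAV-GSTA4 replicate 2 and at 11.3 to 24.6 CPM in the other 6 libraries. The cytokines themselves were too low to test. Cntf had 0 counts in 5 libraries and 1 count in each of the other 2. Lif, the cytokine by which Mueller glia answer photoreceptor injury, had 57 counts in AAV-GFP replicate 3 and 0 to 14 in the other libraries. Cntf and Lif were named after their values were seen.

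In the glutamate and glutamine list of 9 genes, the neuronal and epithelial glutamate transporter Slc1a1 was higher in AAV-GSTA4. It was at 447, 447 and 180 CPM in the AAV-GFP libraries (replicates 1 to 3) and at 866, 594, 967 and 554 CPM in the AAV-GSTA4 libraries (replicates 1 to 4), without overlap. Its log2 fold change was 1.06 ± 0.38 (SE), with adjusted p = 0.373 (edgeR), and 0.74 without AAV-GFP replicate 3. Slc1a3 had the opposite sign, and neither passed. Glud1, glutamate dehydrogenase, was at 30.5 to 31.6 CPM in AAV-GFP and 15.6 to 21.3 CPM in AAV-GSTA4, with a log2 fold change of -0.75 ± 0.22 (SE) and adjusted p = 0.363 (edgeR). Slc38a3, a glutamine exporter, had a log2 fold change of 0.23 ± 0.30 (SE; 0.46 without AAV-GFP replicate 3).

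Of the 9 partners of the potassium and water channels, 1 was lower and 0 were higher at an unadjusted p-value under 0.05, beside 6.63% and 5.27% of all genes, and without AAV-GFP replicate 3 both counts were 0. Aqp1, the water channel of epithelia, was at 87.5, 89.8 and 96.7 CPM in the AAV-GFP libraries (replicates 1 to 3) and at 23.1, 50.2, 25.3 and 81.2 CPM in the AAV-GSTA4 libraries (replicates 1 to 4). Like Aqp4 it was low in AAV-GSTA4 replicate 3 and higher in replicate 2, but its highest AAV-GSTA4 library was replicate 4. Its log2 fold change was -1.02 ± 0.41 (SE), with adjusted p = 0.384 (edgeR), and its unadjusted p-value moved from 0.0310 to 0.0929 without AAV-GFP replicate 3. Kcnj2, another inward rectifier, had a log2 fold change of -1.15 ± 0.66 (SE; -0.44 without AAV-GFP replicate 3), and Kcnj13, the Kir7.1 channel of the RPE, had one of 0.74 ± 0.45 (SE; 0.37 without it). The scaffold protein Sntb1 had one of 0.61 ± 0.28 (SE; 0.35 without it), without overlap of the groups.

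The 16 genes of the Notch pathway, in which Hes1 is a target, had their median at -0.13 on the log2 scale, with 7 above 0 and 9 below. The receptor Notch2 was the 1 gene with an unadjusted p-value under 0.05, beside 5.27% of all genes higher and 6.63% lower. It was at 22.8, 32.4 and 18.1 CPM in the AAV-GFP libraries (replicates 1 to 3) and at 42.5, 36.0, 38.9 and 43.4 CPM in the AAV-GSTA4 libraries (replicates 1 to 4), a log2 fold change of 0.72 ± 0.24 (SE) with adjusted p = 0.369 (edgeR). Notch3 (-0.96 ± 0.51, SE; -0.55 without AAV-GFP replicate 3), a receptor of vascular mural cells, and the ligand Dll1 (-0.71 ± 0.46, SE) had fold changes of the opposite sign. Numb, an inhibitor of Notch signalling, had a log2 fold change of 0.38 ± 0.23 (SE). Hes1 was lower and Notch2 higher in every AAV-GSTA4 library than in any AAV-GFP library, and neither difference passed the adjusted threshold.

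**Figure D4:**
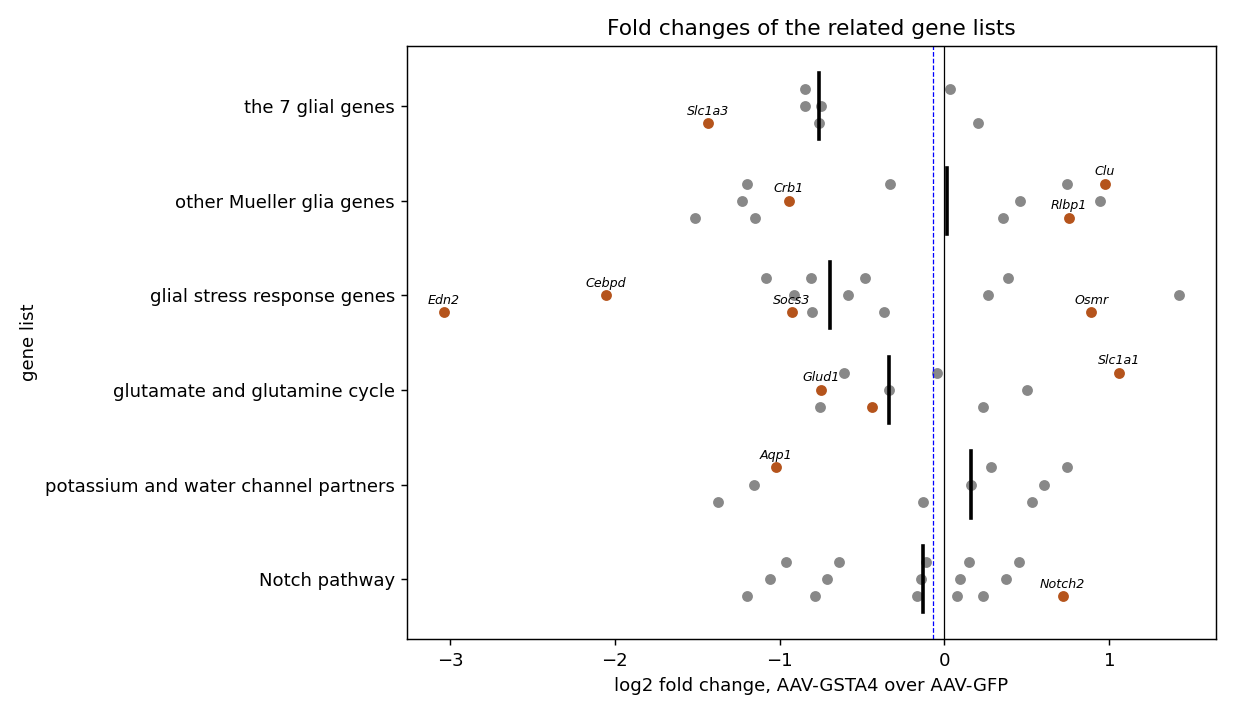
Log2 fold change of every tested gene in the 7 glial genes and in 5 related lists, with genes at an unadjusted p-value under 0.05 in orange (named where the log2 fold change is beyond 0.5 in either direction), the median of each list as a black bar, and the median of all genes (-0.07) as a dashed line. The glial stress list has its median at -0.69, with Edn2 at -3.03 and Cebpd at -2.05, and the other Mueller glia genes have theirs at 0.01.

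Summed Y-linked genes were above 10 CPM in 3 libraries (AAV-GFP replicate 1, AAV-GSTA4 replicates 3 and 4) and below it in the other 4, so differences were also taken inside each class. In the class above 10 CPM, the difference of mean log2 CPM was -1.19 for Slc1a3, -2.03 for Aqp4, -1.68 for Kcnj10, -1.82 for Sox2, -0.58 for Hes1, -0.37 for Gfap and 0.29 for Glul. Among the others it was -0.83, -0.23, -0.23, -0.13, -0.95, 0.26 and 0.07 in the same order. Each class holds 1 to 2 libraries of a group, and the class above 10 CPM has a single AAV-GFP library. In the other class, leaving out AAV-GFP replicate 3 turned the sign for Slc1a3 (0.44), Aqp4 (0.34), Kcnj10 (0.61), Sox2 (0.16) and Glul (-0.021), while Gfap was at 0.94 and Hes1 at -1.13. Of the 7 genes, Hes1 alone had a negative difference in all of these. Its groups did not overlap, so any choice among these libraries had to give it that sign. With the class as a covariate, a fit chosen after seeing the data, the log2 fold change of Slc1a3 was -1.25 with adjusted p = 0.482 (edgeR).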

How the data were processed

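RNA of aged mouse RPE was sequenced after low-input full-length cDNA synthesis and transposase fragmentation, per the labels' protocols. The authors deposited raw counts per gene symbol. STAR 2.7.1a and featureCounts 1.6.2 are named, with the builds GRCm38 and GRCh38, per the submitters' processing notes; annotation, strand setting and multi-mapping rule are not given in the sources used here, so reads of overlapping genes may be shared. No molecular identifiers are mentioned, so intervals cover counting error only. No column was left without a sample, and replicates are numbered as in the titles.

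Differences were tested with edgeR 4.0.16 in R 4.3.3 (quasi-likelihood, TMM scaling, robust, default expression filter, all 7 libraries, group as the only term), with Benjamini-Hochberg adjustment over all 15075 genes at a threshold of 0.05. SE was derived from the fold change and its F statistic. CPM is TMM-scaled and log2 CPM has a prior count of 2, while marker sums use library totals. Exon lengths are from GENCODE M21. Named genes were the 7 members, the gene nearest to each in the lists and among all genes, and in each related list the 2 smallest p-values in each direction. Some genes that this rule or a list holds are not reported here. The members and lists were chosen with earlier results of these data known. The test was checked on simulated counts, with 200 genes changed in each run. It called 62% of those with a true log2 fold change of 2, 75.5% at 3 and 0% at 1. A missing call therefore does not exclude a log2 fold change of about 1, nor one of 2 or 3, where part of the changed genes was also missed. Alternatives were other scalings, filters, DESeq2 1.42.0, limma-voom (limma 3.58.1), replicate blocks, a rod covariate and libraries left out. Chosen after seeing the data were a Y-linked class as covariate, 2 libraries left out together, and the moderation in limma-voom: it was run first with robust moderation, and the default was added once those calls had been seen. Both are reported.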

Additional observations from a re-analysis of the deposited data

Results flagged for a closer look

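Among 20 values examined for an isolated AAV-GSTA4 library (the 7 genes and 13 marker sums), 1 stood apart, where chance gives about 5%. The ganglion cell markers (Nefl, Sncg and others) summed to 144 CPM in AAV-GSTA4 replicate 1, against 43.2 to 49.2 CPM in the other 3, a gap to the next library that was 0.941 of the whole range. Most of that sum was Nefl. Without Nefl the markers summed to 49.9 CPM in that library and to 21.7 to 27.8 CPM in the other 3. The check for an isolated library was not repeated without Nefl. In the same library Gfap, Sox2, Kcnj10 and Slc1a3 were the highest of their group. The part of ganglion cell or nerve fibre tissue in those levels was not tested.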

How the results depend on the processing

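No alternative brought any of the 7 genes past the adjusted threshold, and the lowest adjusted p-value was 0.173 (Slc1a3 in DESeq2). Sox2 had no adjusted p-value in DESeq2 and was not tested with at least 10 counts in every library. The count of all genes called moved from 0 to 166 in DESeq2, to 146 in limma-voom with robust moderation (0 with the default) and to 1 with the rod covariate, with either replicate block, and without AAV-GSTA4 replicate 3; it was 0 to 1 over the fits without 1 library. Members at an unadjusted p-value under 0.05 numbered 2 with library totals (Slc1a3, Hes1), beside 15.9% of all genes. They numbered 2 in default limma-voom (Aqp4, Hes1) and 1 in robust limma-voom (Hes1), beside 21.8% and 21.7%. The replicate block by library numbers had 1, beside 7.62%. That was Aqp4, with a log2 fold change of -1.62, unadjusted p = 0.00337 and adjusted p = 0.634 (edgeR). The number was 0 with the rod covariate (9.02% of all genes) and 0 with the replicate block by title numbers (5.63%). It was 0 to 1 without 1 library (6.88% to 12.7%), and 0 without AAV-GFP replicate 3 and AAV-GSTA4 replicate 3 together (8.83%). Related-list genes called numbered 2 in DESeq2, beside the 166 of all genes. Those at the unadjusted level moved from 12 to 19 with library totals and in DESeq2, 23 and 22 in default and robust limma-voom, 6 with the rod covariate, 6 and 7 with the replicate block by title and by library numbers, 6 to 18 without 1 library, and 5 without both replicates 3. All genes at that level moved from 1794 to 3293 and 3277 in default and robust limma-voom, to 849 and 1148 with the replicate block by title and by library numbers, and to 1032 to 1988 without 1 library. The members' median log2 fold change moved from -0.76 to -0.11 with the rod covariate and -0.21 without both replicates 3. The robust limma-voom fit was run first, and the default was added after seeing its calls. The cause of these shifts was not tested.

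With library totals, genes at the unadjusted level that were lower made up 14.1% of all tested, out of 15.9%, against 6.63% out of 11.9% with TMM. Signs turned for Glul (-0.091 with library totals, -0.095 as a difference of log2 CPM; -0.014 with the rod covariate), Slc1a3 (0.18 with the rod covariate) and Gfap (-0.31 with library totals; -0.26 to 0.35 without 1 library; as a difference of log2 CPM -0.39 to 0.28 without 1 library). Same-numbered libraries did not deviate together (r = -0.09, -4.27e-06 and 0.01 by title number), so the numbers were not taken as pairs. Depth limits Sox2 and Kcnj10, with as few as 9 and 18 counts.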
